A study of Mus musculus with 17 samples.

Results

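Glycolysis and the response to low oxygen were followed here through 36 genes, listed by name but chosen with earlier results of these data known. All 36 were present among the 24015 gene symbols of the count files. They comprise 4 glucose and lactate transporters, 9 enzyme genes of upper glycolysis, 6 of lower glycolysis, 3 genes of pyruvate fate, 2 oxygen sensors, 10 genes of the hypoxia response and 2 alpha subunits of the hypoxia-inducible factors (HIF). Messenger RNA was sequenced from 17 libraries of CD-1 mouse cells in 5 groups. The 3 MEF libraries are embryonic fibroblasts labelled as the control, after 3 passages in MEF medium. XEN cells are lines of extraembryonic endoderm stem cells, and iXEN cells are their induced counterpart, obtained with the reprogramming factors OSKM (Oct4, Sox2, Klf4 and Myc) according to the series title. Both had 10 passages in ESC medium and then 5 more, either in ESC medium (3 XEN and 4 iXEN libraries) or in XEN medium (3 XEN and 4 iXEN libraries). Libraries are named below by the number in their labels, which is 1, 2 or 7 in the XEN groups and 1, 2, 6 or 9 in the iXEN groups. The labels do not say whether a number stands for 1 clone, 1 derivation or 1 pool. Between MEF and the stem cells the cell type, the medium and the number of passages differ together and cannot be told apart.

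Glycolysis splits glucose into pyruvate in the cytosol. Glucose enters through the facilitative transporters of the Slc2a family, is trapped by hexokinase, committed by phosphofructokinase and converted by the lower enzymes to pyruvate, which lactate dehydrogenase can turn into lactate for export by the Slc16a transporters. HIF is a dimer of an oxygen-labile alpha subunit (Hif1a or Epas1, the latter also called HIF-2 alpha) and a stable partner, Arnt. With oxygen present, the prolyl hydroxylases of the Egln family mark the alpha subunits for degradation, so the protein is controlled largely after transcription and is not read from its messenger RNA. When stabilised, HIF binds a short core sequence, ACGTG or GCGTG, near genes such as Slc2a1, Ldha, Pgk1, Vegfa, Car9 and Egln3. Extraembryonic endoderm is known as a secretory tissue that lays down basement membrane rich in collagen, whose prolines are hydroxylated by the P4ha enzymes.

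Counts assigned to genes came to between 20071567 and 45914262 per library, of which the 36 members took 0.566% to 1.53%. A level is given in CPM, the counts of a gene relative to all counts of its library and scaled for library composition, and 3 counts in a library equal 0.0589 to 0.138 CPM. A gene is said to have risen, fallen or been called where its Benjamini-Hochberg adjusted p over all genes tested was under 0.05 in edgeR's quasi-likelihood test. Differences are log2 fold changes with their standard error (SE). The 9 markers of extraembryonic endoderm, Gata6 and Sox17 among them, summed to 1046 to 1470 CPM in MEF and to between 5182 and 83102 CPM in the stem cell libraries. The 8 fibroblast markers summed to 36711.5 to 51916 CPM in MEF, 16.0 to 23.0 CPM in ESC-medium iXEN libraries and 0.612 to 7.03 CPM in XEN-medium XEN libraries. Of the other libraries, 4 carried more of them: XEN 1 with 7677 CPM and XEN 2 with 336 CPM in ESC medium, and iXEN 2 with 2193 CPM and iXEN 9 with 958 CPM in XEN medium. XEN 7 in ESC medium had 5.66 CPM, and iXEN 1 and 6 in XEN medium had 0.266 and 0.331 CPM. XEN 7 also stood apart in the endoderm markers, with Sox7 at 0.470 and 0.805 CPM in ESC and XEN medium where the other stem cell libraries had 40.7 to 272 CPM, and in Pecam1, an endothelial marker, at 91.9 and 179 CPM. XEN 1 in XEN medium had 6.10 CPM of Col4a1, below the MEF libraries. The sums of 6 macrophage markers reached from 0.393 to 70.3 CPM, of 6 pluripotency markers from 1.08 to 26.0 CPM, of 4 visceral endoderm markers from 0.471 to 210 CPM and of 4 endothelial markers from 14.5 to 850 CPM over all groups. In bulk libraries fewer cells of a type and less RNA per cell cannot be told apart.

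Each kind of stem cell in ESC medium was first compared with MEF. In iXEN cells the called members moved in both directions. Slc2a3 and Slc16a1 (2 of 4 transporters), the prolyl hydroxylases and Epas1 were among those up. Adm, Pfkp, Car9, Hif1a, Ddit4, Pkm, Ldha and Pdk1 were down. Of 35 members tested, 11 (31.4%) were higher and 8 (22.9%) lower, while 20.8% of all 14352 genes tested were higher and 25.9% lower. In XEN cells 8 of 35 (22.9%) were higher and 4 (11.4%) lower, beside 11.4% higher and 13.7% lower of all 14001 genes tested. The median log2 difference over the tested members was -0.11 in iXEN and 0.25 in XEN cells, and over all genes tested it was 0.03 and -0.03. Ankrd37, Egln3, Epas1, Hk2, P4ha2, Slc16a1 and Slc2a3 were higher in both, which is 7 of the 11 calls in iXEN cells and 7 of the 8 in XEN cells. Adm, Ddit4, Hif1a and Pfkp were lower in both, 4 of 8 and 4 of 4. The comparisons share the 3 MEF libraries and the overlap over all genes was not counted, so nothing about the members is read from theirs. The values of both comparisons are given side by side. Of the 19 calls in iXEN cells 8 held under all 12 alternative settings (Adm, Ankrd37, Epas1, Hk2, P4ha1, P4ha2, Slc16a1 and Slc2a3), and of the 12 in XEN cells 2 held under all 11 (Egln3 and P4ha2). Most calls in XEN cells needed all 3 MEF libraries: 2 or 3 of the 8 higher calls and 1 of the 4 lower, Pfkp, were left without any 1 of them. Without XEN 1 the calls of Pfkl, Ddit4 and Hif1a were lost, and without XEN 2 that of Adm. In iXEN cells the call of Ddit4 was lost without any 1 MEF library or without iXEN 1, 2 or 9, and that of Higd1a without MEF 1, MEF 3, iXEN 1 or iXEN 2. The remaining member, Eno1, was not tested, with 0 to 3 counts in every library.

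**Figure D1:**
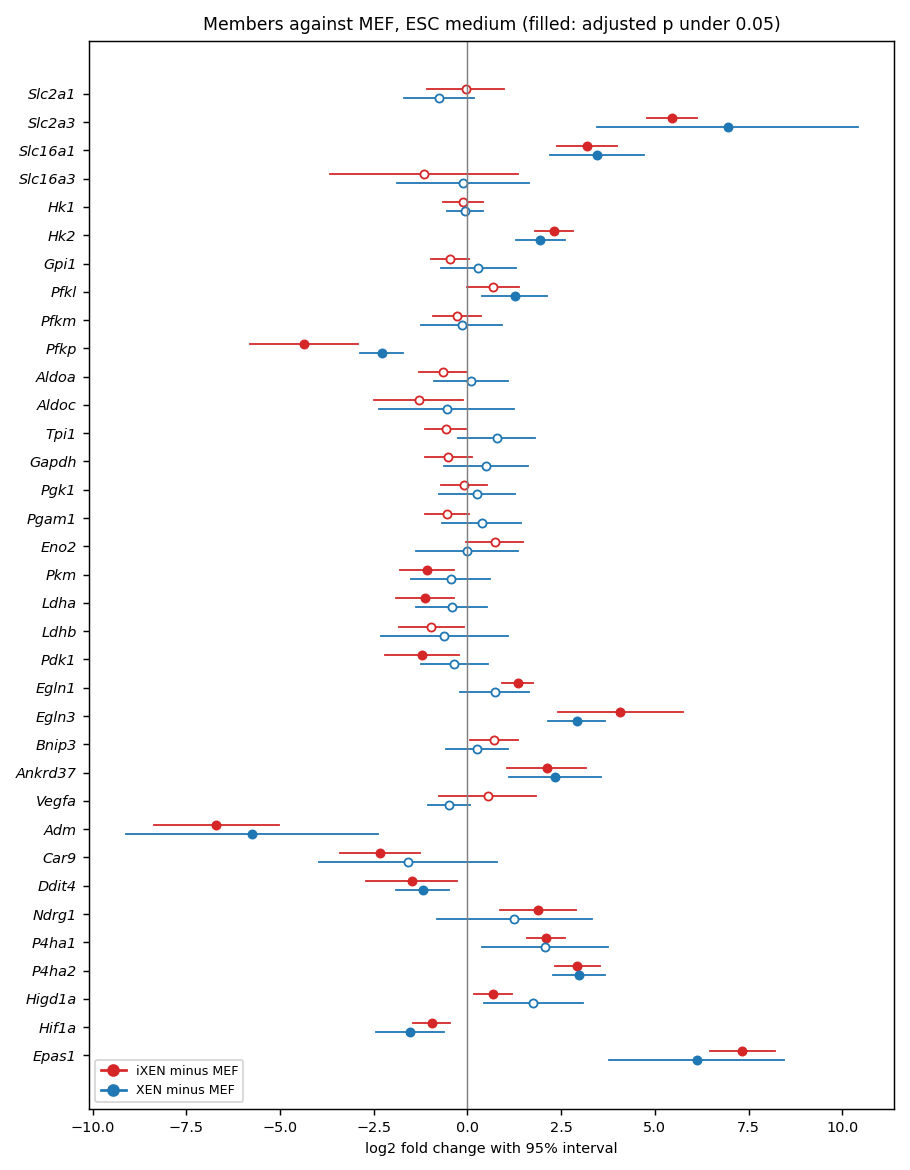
Log2 fold change of the 35 tested members (y axis) against MEF in ESC medium, with bars for 95% intervals of the fit; red points are iXEN cells (n = 4 against 3), blue points XEN cells (n = 3 against 3), and filled points have an adjusted p under 0.05. Slc2a3 and Epas1 lie farthest to the right in both, Adm farthest to the left, and the enzymes from Aldoa to Eno2 are all open points.

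Of the glucose transporters, Slc2a3 was called in both comparisons and Slc2a1 in neither. Slc2a3, the high-affinity glucose transporter GLUT3, stood at 9.25, 8.77 and 12.1 CPM in MEF 1, 2 and 3. It stood at 90.8, 407 and 2996 CPM in XEN 1, 2 and 7 in ESC medium, and at 381, 483, 534 and 327 CPM in iXEN 1, 2, 6 and 9. No stem cell library overlapped with MEF, and XEN 7 was the highest by far. The difference from MEF was 5.46 (SE 0.30, 44.0-fold, adjusted p = 3.37e-06) in iXEN cells and 6.94 (SE 1.44, adjusted p = 0.020) in XEN cells, or 4.72 (adjusted p = 0.00524) without XEN 7. Slc2a1, the widespread glucose transporter GLUT1, ranged from 59.8 to 111 CPM in MEF, 33.7 to 69.8 CPM in XEN and 35.3 to 138 CPM in iXEN cells in ESC medium. These ranges overlapped, and neither difference was called (-0.76, SE 0.39, adjusted p = 0.19 in XEN and -0.04, SE 0.45, adjusted p = 0.95 in iXEN cells). Per kilobase of exon, Slc2a3 averaged 2.54 CPM in MEF beside 25.8 CPM for Slc2a1, and 109 CPM beside 24.4 CPM in iXEN cells in ESC medium. The log2 ratio of Slc2a3 to Slc2a1 counts was below 0 in all 3 MEF libraries and above 0 in 13 of the 14 stem cell libraries, the exception being iXEN 6 in XEN medium at -1.93.

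Of the lactate transporters, Slc16a1 was likewise called in both and Slc16a3 in neither. Slc16a1, the monocarboxylate transporter MCT1, stood at 57.8, 55.6 and 43.4 CPM in MEF 1, 2 and 3. In ESC medium its levels were 228, 623 and 785 CPM in XEN 1, 2 and 7 and 360, 468, 725 and 313 CPM in iXEN 1, 2, 6 and 9. Every one of these libraries was above MEF, and the differences were 3.45 (SE 0.52, adjusted p = 0.00896) in XEN and 3.20 (SE 0.35, 9.18-fold, adjusted p = 1.47e-04) in iXEN cells. Slc16a3, the transporter MCT4 known for lactate export from glycolytic cells, read 8.13 to 24.7 CPM in MEF, 12.3, 26.7 and 4.02 CPM in XEN 1, 2 and 7, and 0.714, 22.1, 4.80 and 0.620 CPM in iXEN 1, 2, 6 and 9. Within iXEN cells it spanned a 35.7-fold range, and it was called in neither comparison (-0.12, adjusted p = 0.91 in XEN and -1.16, adjusted p = 0.42 in iXEN cells). Bsg, the chaperone that brings both transporters to the membrane, rose as well: the MEF mean was 463 ± 80.2 CPM (SD, n = 3), the XEN mean 1123 ± 173 CPM (SD, n = 3) and the iXEN mean 715 ± 131 CPM (SD, n = 4).

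**Figure D2:**
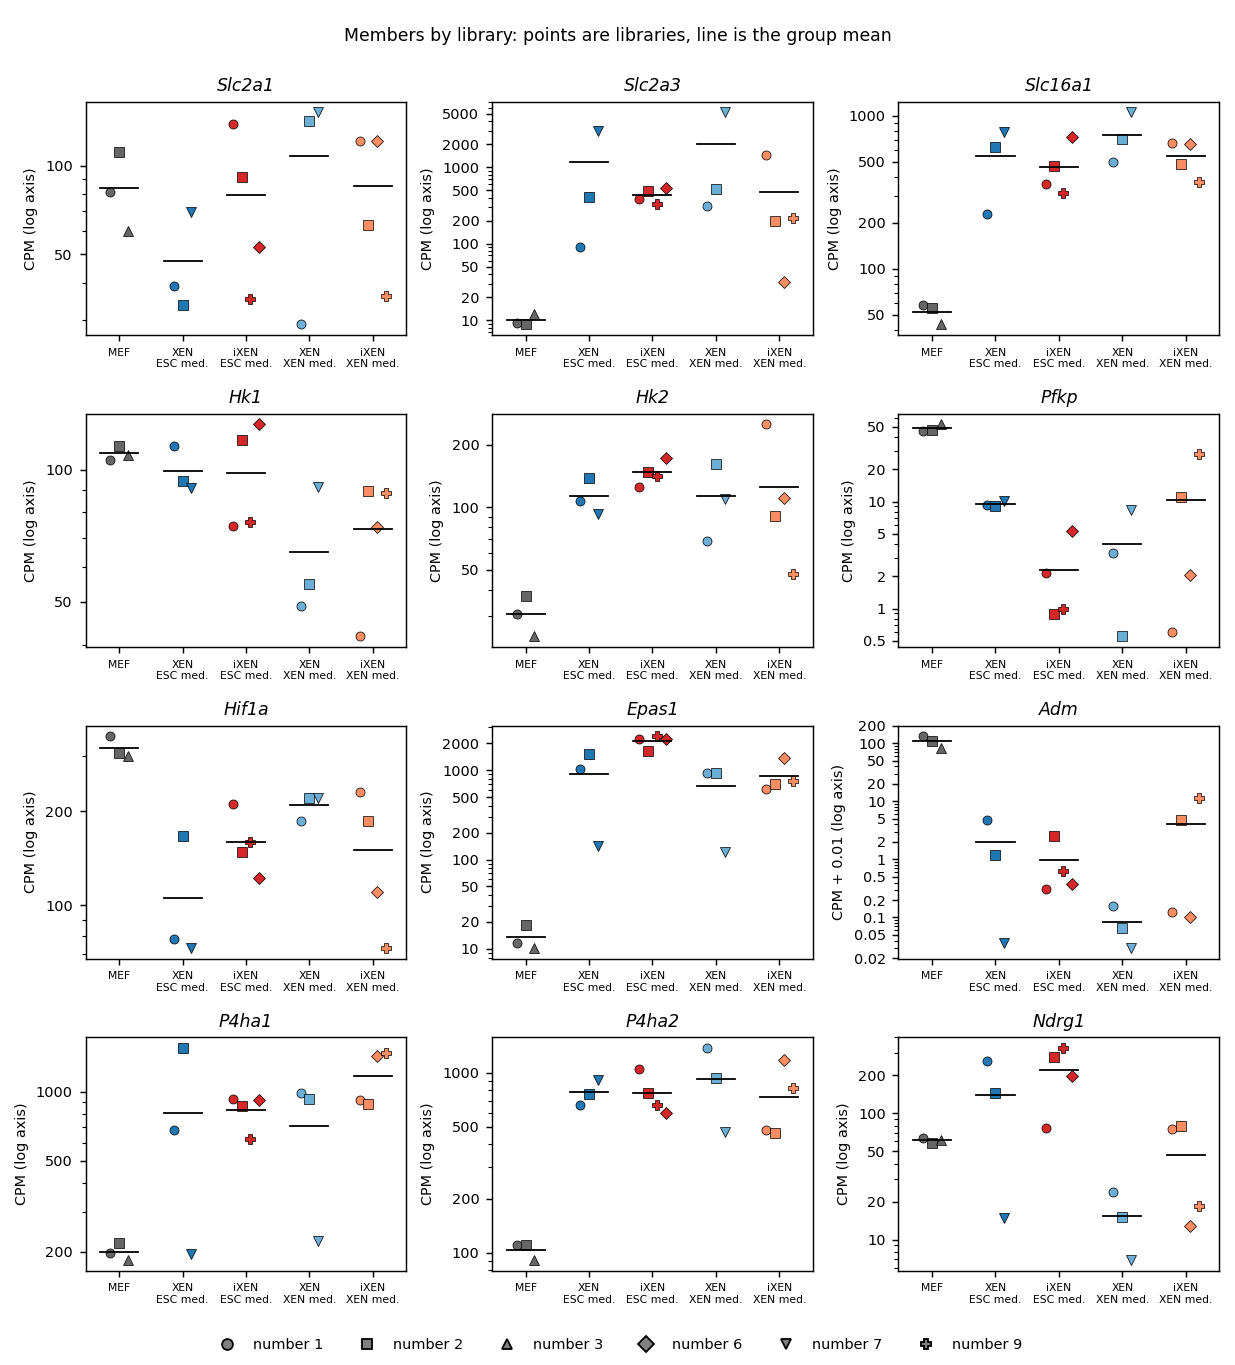
CPM of 12 members (y axis, log scale, with 0.01 added for Adm) in the 5 groups (x axis); each point is a library, its shape is the library's number and the line is the group mean. Slc2a3, Slc16a1, Hk2, Epas1 and P4ha2 lie above all 3 MEF libraries in every stem cell library, while XEN 7 (downward triangle) is low in Epas1, P4ha1 and Ndrg1 in both media.

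Of the isozymes of hexokinase, the first enzyme of the pathway, Hk2 rose and Hk1 was not called. Hk2, the inducible isozyme, stood at 30.5, 37.4 and 23.9 CPM in MEF, at 108, 138 and 93.1 CPM in XEN 1, 2 and 7, and at 125, 149, 173 and 142 CPM in iXEN 1, 2, 6 and 9 in ESC medium. The groups did not overlap, and Hk2 rose by 1.95 (SE 0.27, adjusted p = 0.00775) in XEN and by 2.30 (SE 0.22, 4.94-fold, adjusted p = 7.48e-05) in iXEN cells. Hk1, the constitutive isozyme, ranged from 105 to 113 CPM in MEF and from 74.3 to 127 CPM over both kinds of stem cell in ESC medium, with differences of -0.07 (SE 0.20) and -0.11 (SE 0.23). Its levels in MEF lay inside those of the stem cells. The mean log2 ratio of Hk2 to Hk1 counts was -1.85 for MEF, and in ESC medium 0.17 for XEN and 0.61 for iXEN cells. A further hexokinase outside the 36 genes, Hkdc1, went from 0.527 to 0.774 CPM in MEF to 516 to 1002 CPM in iXEN cells (10.05, SE 0.42, adjusted p = 1.10e-06). It reached 289 and 652 CPM in XEN 1 and 2 but 1.49 CPM in XEN 7 in ESC medium (8.91, SE 2.04, adjusted p = 0.026).

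Phosphofructokinase, which commits sugar to glycolysis, has a platelet, a liver and a muscle subunit, of which Pfkp fell in both kinds of stem cell and Pfkl rose in XEN cells. Pfkp, the platelet form, stood at 45.3, 46.8 and 52.8 CPM in MEF 1, 2 and 3. It was at 9.31, 9.0 and 10.0 CPM in XEN 1, 2 and 7 and at 2.14, 0.883, 5.26 and 0.980 CPM in iXEN 1, 2, 6 and 9 in ESC medium. All stem cell libraries were below all MEF libraries, and Pfkp fell, with differences of -2.29 (SE 0.23, adjusted p = 0.00434) in XEN and -4.36 (SE 0.63, adjusted p = 6.66e-04) in iXEN cells. The fibroblast marker sums of the 3 XEN libraries ran from 5.66 to 7677 CPM, and their part in these values was not tested. Pfkl, the liver form, ranged from 60.2 to 137 CPM in MEF and rose to 178, 254 and 222 CPM in XEN 1, 2 and 7 (1.26, SE 0.36, adjusted p = 0.047). In iXEN cells Pfkl lay between 121 and 188 CPM, overlapping MEF (0.68, SE 0.30, adjusted p = 0.097). Pfkm, the muscle form, ranged from 45.6 to 53.8 CPM in MEF and from 17.4 to 58.0 CPM in the ESC-medium stem cells, and was not called. The mean log2 ratio of Pfkp to Pfkl counts was -0.90 for MEF, and in ESC medium -4.51 for XEN and -6.35 for iXEN cells.

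Few of the enzymes that follow were called. Among the 15 glycolytic enzyme genes from Hk1 to Ldha that were tested, 12 had a log2 difference below 0 in iXEN cells against MEF. The median of the 15 was -0.51, beside 0.03 over all genes tested. Of the 15, 3 were called lower (Pfkp, Pkm and Ldha) and 1 higher (Hk2), beside 25.9% lower and 20.8% higher of all genes. In XEN cells 7 lay below 0 and 8 above, with a median of 0.09, beside -0.03 over all genes. There 1 was called lower and 2 higher, beside 13.7% lower and 11.4% higher of all genes. Pkm, pyruvate kinase, had 1860.2, 2878 and 1364 CPM in MEF and 1045, 1228, 664 and 823 CPM in iXEN 1, 2, 6 and 9. Ldha, which makes lactate from pyruvate, had 737, 1110.4 and 545 CPM in MEF and 362, 541, 234 and 286 CPM in the same iXEN libraries. For both genes every iXEN library was below every MEF library, though by a narrow margin, and both fell, with differences of -1.08 (SE 0.31, adjusted p = 0.021) for Pkm and -1.13 (SE 0.34, adjusted p = 0.024) for Ldha. In XEN cells the differences were -0.45 (adjusted p = 0.47) for Pkm and -0.42 (adjusted p = 0.44) for Ldha. Both calls in iXEN cells were lost without MEF 2, which was the highest MEF library for 11 of the 15 enzymes, and without iXEN 9, and that of Ldha also without MEF 1 or iXEN 1. Both were lost as well with all 5 groups in one fit. With the XEN-medium iXEN libraries in place the differences were -0.25 for Pkm (adjusted p = 0.68) and -0.08 for Ldha (adjusted p = 0.89).

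**Figure D3:**
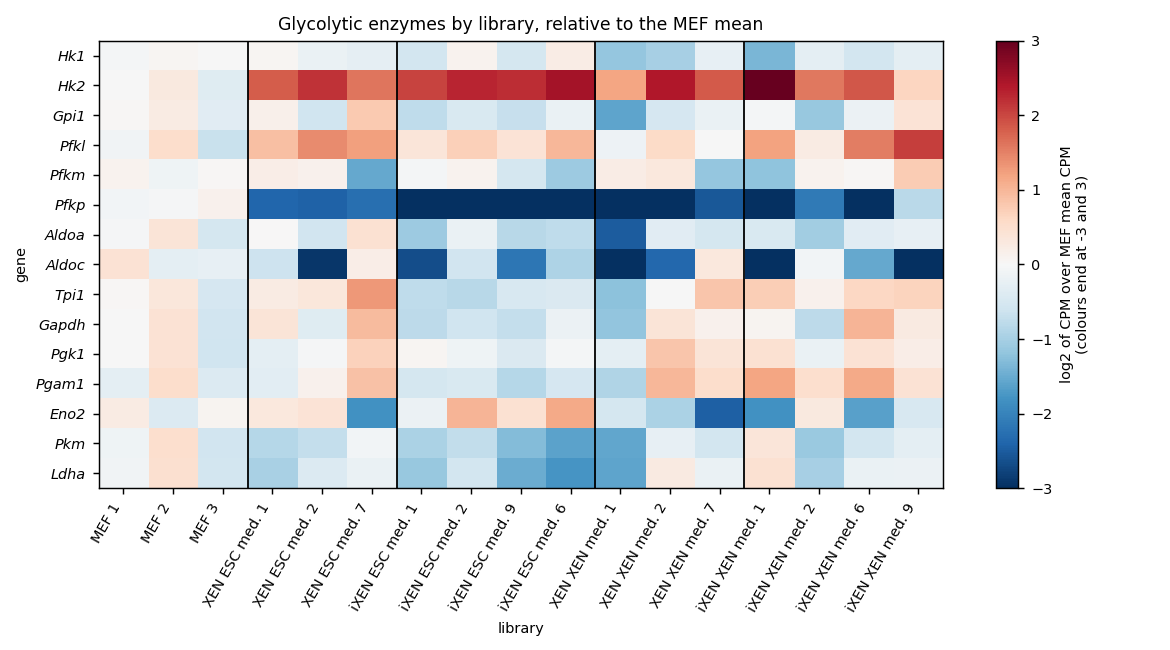
Log2 of the CPM of 15 glycolytic enzyme genes (rows) in each library (columns) over the MEF mean, with colours ending at -3 and 3; black lines separate the 5 groups. Hk2 is red and Pfkp blue across the stem cell libraries, Aldoc and Eno2 differ between libraries of a group, most other cells are paler, and XEN 1 in XEN medium is a column of blue with the lowest level of its group in 12 of the 15 genes.

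Gpi1, Aldoa, Tpi1, Gapdh, Pgk1 and Pgam1, the isomerase, aldolase, triose and 3-carbon steps of the pathway, were called in neither comparison. Their differences ran from -0.65 for Aldoa to -0.09 for Pgk1 in iXEN cells and from 0.09 for Aldoa to 0.78 for Tpi1 in XEN cells. Aldoc, the brain aldolase, was low throughout, with 7.15 to 11.8 CPM in MEF and 1.39 to 5.92 CPM in iXEN cells in ESC medium, and was not called (-1.30, SE 0.52, adjusted p = 0.071). Eno2, the neuronal enolase, ranged from 30.2 to 48.0 CPM in MEF and from 36.0 to 88.7 CPM in iXEN cells (0.73, SE 0.33, adjusted p = 0.10). Enolase is listed under several symbols. Eno1, the main enolase, had at most 3 counts in any library, whereas the row Eno1b, singled out after its values were seen, held 482 to 5826 counts. Eno1b read 101 to 219 CPM in MEF, 28.7 to 130 CPM in XEN and 15.7 to 36.7 CPM in iXEN cells in ESC medium. Reads that fit near-identical gene copies equally well were not counted to a gene, and many glycolytic genes have such copies in the mouse genome, so the levels of these enzymes are uncertain. With so few Eno1 counts, no ratio of Eno2 to Eno1 is given, and the cause of the low Eno1 counts was not tested.

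At the exit from glycolysis stands Pdk1, a kinase that inhibits pyruvate dehydrogenase. Pdk1 had 24.2, 23.1 and 16.5 CPM in MEF and 5.25, 17.4, 5.67 and 7.41 CPM in iXEN 1, 2, 6 and 9. The groups overlapped through iXEN 2 and MEF 3, and Pdk1 fell by 1.22 (SE 0.43, adjusted p = 0.046), a call that 9 of the 12 alternative settings lost. In XEN cells Pdk1 ranged from 11.8 to 23.5 CPM (-0.35, SE 0.37, adjusted p = 0.50). Ldhb, the dehydrogenase subunit that favours lactate as substrate, read 58.9 to 68.6 CPM in MEF, and in ESC medium 15.3 to 54.0 CPM in iXEN and 9.78 to 83.9 CPM in XEN cells. It did not pass the test in iXEN cells (-0.97, SE 0.38, adjusted p = 0.066), although the groups did not overlap, nor in XEN cells (-0.61, SE 0.70, adjusted p = 0.53). The mean log2 ratio of Ldhb to Ldha was -3.55 in MEF and -3.53 in iXEN cells in ESC medium.

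The HIF alpha subunits went in opposite directions. Epas1 stood at 11.6, 18.6 and 10.2 CPM in MEF 1, 2 and 3. It read 1042, 1534 and 142 CPM in XEN 1, 2 and 7 and 2203, 1619, 2257 and 2402 CPM in iXEN 1, 2, 6 and 9 in ESC medium. Even XEN 7, the lowest, lay above all MEF libraries. Epas1 rose by 7.34 (SE 0.37, 162-fold, adjusted p = 2.65e-06) in iXEN and by 6.12 (SE 0.97, 69.6-fold, adjusted p = 0.010) in XEN cells, or by 6.71 without XEN 7. Hif1a read 348, 307 and 300.3 CPM in MEF, 78.1, 167 and 73.0 CPM in XEN 1, 2 and 7, and 211, 149, 122 and 159 CPM in iXEN 1, 2, 6 and 9. Its groups did not overlap either, and Hif1a fell, with differences of -1.53 (SE 0.37, adjusted p = 0.031) in XEN and -0.96 (SE 0.21, adjusted p = 0.00621) in iXEN cells. Per kilobase of exon, Hif1a averaged 58.5 CPM and Epas1 2.44 CPM in MEF, against 29.4 and 384 CPM in iXEN and 19.5 and 164 CPM in XEN cells in ESC medium. The log2 ratio of Epas1 to Hif1a counts was below 0 in all 3 MEF libraries and above 0 in 13 of 14 stem cell libraries, the exception being XEN 7 in XEN medium at -0.87.

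**Figure D4:**
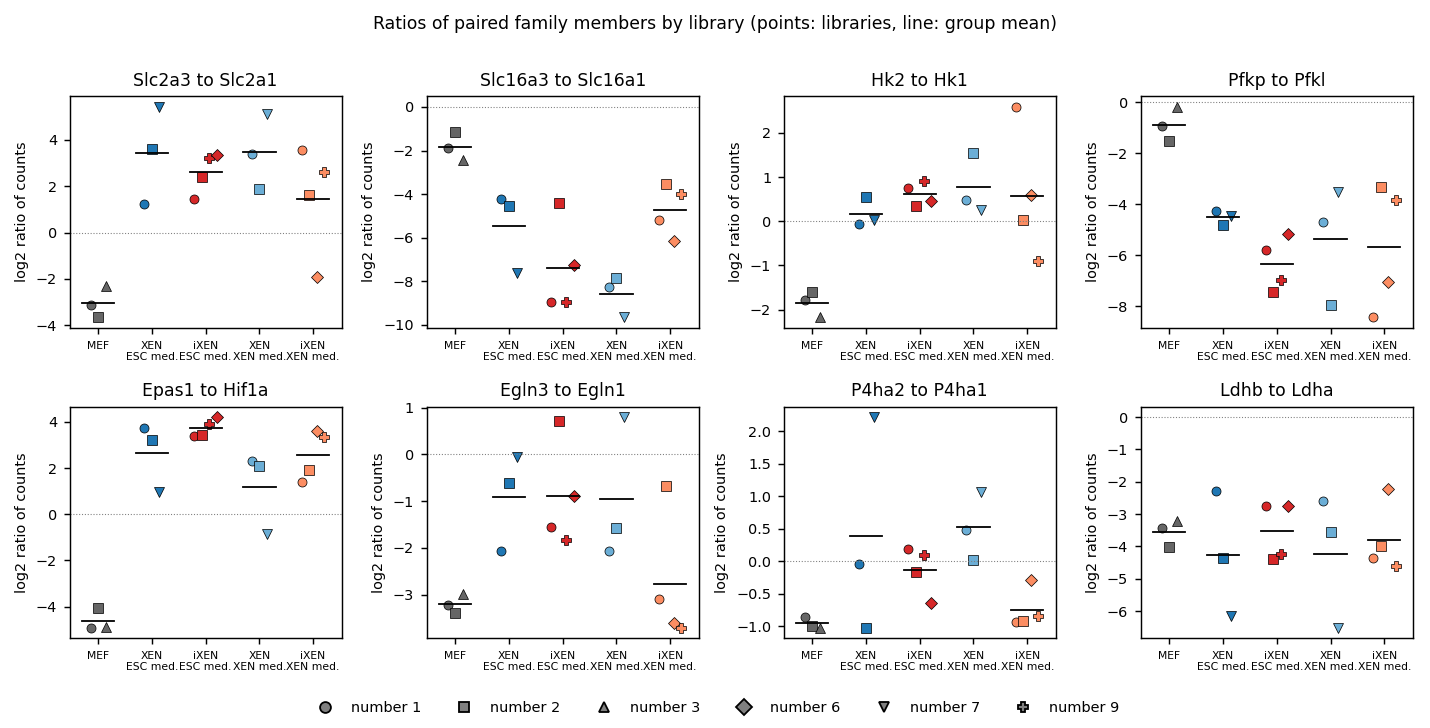
Log2 ratio of the counts of paired family members (y axis) in the 5 groups (x axis); points are libraries, shapes are library numbers, lines are group means and dotted lines mark equal counts. Slc2a3 to Slc2a1, Hk2 to Hk1 and Epas1 to Hif1a are below 0 in MEF and mostly above 0 in the stem cells, and Slc16a3 to Slc16a1 and Pfkp to Pfkl are lower in every stem cell library than in any MEF library.

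Of the oxygen-sensing hydroxylases, Egln3 rose in both kinds of stem cell and Egln1 in iXEN cells. Egln3, itself a well-known HIF target, stood at 3.83, 3.84 and 4.48 CPM in MEF, at 22.4, 31.1 and 34.2 CPM in XEN 1, 2 and 7, and at 24.9, 165, 50.0 and 29.7 CPM in iXEN 1, 2, 6 and 9 in ESC medium. The groups did not overlap, with iXEN 2 far above the other iXEN libraries, and the rises were 2.92 (SE 0.32, adjusted p = 0.00467) in XEN and 4.08 (SE 0.73, adjusted p = 0.00209) in iXEN cells. Egln1, the main sensor, ranged from 35.5 to 40.5 CPM in MEF and rose to 72.8, 100.3, 92.4 and 105 CPM in iXEN 1, 2, 6 and 9 (1.35, SE 0.18, adjusted p = 4.62e-04). In XEN 1, 2 and 7 it read 94.2, 47.4 and 35.8 CPM, so that XEN 7 lay within the MEF range (0.73, SE 0.39, adjusted p = 0.20).

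Of the collagen prolyl hydroxylase subunits, which are HIF targets as well as part of the secretory machinery, P4ha2 rose in both kinds of stem cell and P4ha1 in iXEN cells. P4ha2 stood at 110.2, 109.9 and 91.0 CPM in MEF, at 664, 767 and 916 CPM in XEN 1, 2 and 7, and at 1054, 774, 594 and 666 CPM in iXEN 1, 2, 6 and 9. All stem cell libraries lay far above all MEF libraries, and P4ha2 rose by 2.98 (SE 0.29, adjusted p = 0.00397) in XEN and by 2.93 (SE 0.26, adjusted p = 5.12e-05) in iXEN cells. P4ha1 read 199, 218 and 184 CPM in MEF and 927, 869, 924 and 623 CPM in iXEN 1, 2, 6 and 9, a rise of 2.10 (SE 0.22, adjusted p = 1.26e-04). In XEN cells P4ha1 read 680 and 1553 CPM in XEN 1 and 2 but 196 CPM in XEN 7, inside the MEF range. The difference of 2.07 (SE 0.70, adjusted p = 0.074) was not called, and it became 2.59 (adjusted p = 0.00601) without XEN 7.

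The other genes of the hypoxia response were divided. Ankrd37, a small HIF target, had 0.813, 0.941 and 0.854 CPM in MEF, 2.25, 5.51 and 4.85 CPM in XEN 1, 2 and 7 and 1.89, 5.78, 2.91 and 4.28 CPM in iXEN 1, 2, 6 and 9, and rose by 2.33 (SE 0.51, adjusted p = 0.022) and 2.12 (SE 0.46, adjusted p = 0.00566). Ndrg1, a stress-responsive gene, read 58.6 to 64.3 CPM in MEF and 76.0, 278, 198 and 330 CPM in iXEN 1, 2, 6 and 9, a rise of 1.88 (SE 0.44, adjusted p = 0.00825). In XEN 1, 2 and 7 Ndrg1 read 262, 144 and 14.9 CPM, with XEN 7 below MEF and the others above (1.25, SE 0.86, adjusted p = 0.31). Higd1a, a mitochondrial protein, ranged from 23.3 to 37.9 CPM in MEF and from 41.9 to 51.2 CPM in iXEN cells, a small rise of 0.68 (SE 0.22, adjusted p = 0.034), and from 46.5 to 167 CPM in XEN cells (1.76, SE 0.55, adjusted p = 0.059). Bnip3, a mitophagy receptor, and Vegfa, the angiogenic growth factor, were called in neither comparison. Bnip3 ranged from 29.5 to 40.5 CPM in MEF and 41.1 to 87.1 CPM in iXEN cells (0.71, SE 0.27, adjusted p = 0.064). Vegfa held 61.4 to 64.5 CPM in MEF and spread from 29.7 to 160 CPM in iXEN cells, where iXEN 2 and 6 were above MEF and iXEN 1 and 9 below.

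Adm, Car9 and Ddit4 were lower than in MEF. Adm, the vasodilator peptide adrenomedullin, read 133, 108 and 81.7 CPM in MEF, 4.68, 1.16 and 0.0261 CPM in XEN 1, 2 and 7, and 0.294, 2.56, 0.369 and 0.620 CPM in iXEN 1, 2, 6 and 9 in ESC medium. No library overlapped with MEF, and Adm fell in both, with differences of -5.74 (SE 1.40, adjusted p = 0.031) in XEN and -6.70 (SE 0.73, 104-fold, adjusted p = 1.49e-04) in iXEN cells. Among XEN libraries in ESC medium the order of Adm, from XEN 1 to XEN 7, is that of the fibroblast marker sums of 7677, 336 and 5.66 CPM, whose part in these values was not tested. In iXEN cells in ESC medium, where those sums were 16.0 to 23.0 CPM, Adm was highest in iXEN 2. Car9, a membrane carbonic anhydrase and classic HIF target, was scarce, with 1.35 to 2.56 CPM in MEF and 0.168 to 0.465 CPM in iXEN cells (-2.34, SE 0.47, adjusted p = 0.00376), and 0.367, 0.0448 and 1.25 CPM in XEN 1, 2 and 7 (-1.58, SE 0.99, adjusted p = 0.27). Ddit4, an inhibitor of mTOR signalling, read 58.3, 96.9 and 75.7 CPM in MEF, 34.7, 25.3 and 36.9 CPM in XEN 1, 2 and 7 and 20.5, 16.2, 58.3 and 11.5 CPM in iXEN 1, 2, 6 and 9. iXEN 6 was level with the lowest MEF library to 3 digits, and Ddit4 fell, with differences of -1.19 (SE 0.29, adjusted p = 0.032) in XEN and -1.49 (SE 0.53, adjusted p = 0.048) in iXEN cells.

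Promoter windows, from 250 bases before to 50 after each annotated start, were available in RefSeq (GRCm38.p6) for 33 of the 36 members, all but Slc2a3, Epas1 and Ndrg1. The letters ACGTG, or CACGT for the other strand, were searched for in them, with the palindrome CACGTG counted on both strands. They occurred in 26 of the members' 46 windows (56.5%), compared with 19.6% of all 32851 windows. GCGTG, or CACGC, occurred in 27 (58.7%), compared with 32.4%. The members include many textbook HIF targets by choice, and the share is a description of them. Counted by gene, ACGTG was present in a window of 24 of the 33 members (72.7%). It was present for all 5 members higher in both comparisons that have a window and for 11 of 15 called in neither. Of the 4 lower in both it was present for 2 (Ddit4 and Hif1a, not Adm or Pfkp). Nothing is read from these small counts beside the share of all members. A match is a description of letters and not a binding site. Stretches around the match farthest upstream are shown for members that rose (the first 6) and for 3 with the same letters that did not (Slc16a3, Pgk1 and Ldha), 5′ to 3′ on the gene's strand, with the matches in capitals.
Slc16a1, chr3:104638449-104638484, plus strand: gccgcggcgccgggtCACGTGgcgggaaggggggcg
Hk2, chr6:82774636-82774695, minus strand: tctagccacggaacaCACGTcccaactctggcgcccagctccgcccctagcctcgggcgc
P4ha1, chr10:59323265-59323295, plus strand: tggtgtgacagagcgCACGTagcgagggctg
P4ha2, chr11:54100831-54100865, plus strand: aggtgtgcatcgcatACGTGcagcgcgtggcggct
Egln3, chr12:54204084-54204118, minus strand: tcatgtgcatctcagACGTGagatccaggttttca
Ankrd37, chr8:46000047-46000100, minus strand: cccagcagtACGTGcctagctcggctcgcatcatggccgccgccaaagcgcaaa
Slc16a3, chr11:120949025-120949066, plus strand: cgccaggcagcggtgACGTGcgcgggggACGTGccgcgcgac
Pgk1, chrX:106186935-106186988, plus strand: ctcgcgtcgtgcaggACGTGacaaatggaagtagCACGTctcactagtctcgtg
Ldha, chr7:46845644-46845703, plus strand: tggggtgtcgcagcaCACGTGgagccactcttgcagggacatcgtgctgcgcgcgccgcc
In the 250 bases before these starts, with palindromes counted on both strands, Ldha holds the letters 5 times. Slc16a1, Hk2, Ankrd37, Slc16a3 and Pgk1 hold them 2 times each, and P4ha1, P4ha2 and Egln3 1 time each. Whether these numbers bear on the changes was not tested.

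Genes of the same pathways outside the 36 were called in both directions, as were all genes tested, of which 20.8% were higher and 25.9% lower in iXEN cells and 11.4% and 13.7% in XEN cells. The counts of the wider lists are given beside these shares and nothing particular to a list is read from them. Of 21 HIF pathway regulators tested, 4 rose and 2 fell in iXEN cells, and 3 rose and 2 fell in XEN cells. Cited2, which competes with HIF for its coactivators, averaged 71.1 ± 22.2 CPM in the MEF libraries (SD, n = 3). Its means were 479 ± 156 CPM (SD, n = 4) in iXEN and 360 ± 244 CPM (SD, n = 3) in XEN cells, rising by 2.78 and 2.39 (adjusted p = 4.10e-04 and 0.030). Hif1an, the asparaginyl hydroxylase that blunts HIF activity, rose by 1.24 (adjusted p = 7.91e-04) in iXEN cells, and Arnt2, an alternative HIF partner, fell in both (-4.73 in iXEN and -3.20 in XEN cells). Of 40 other hypoxia-induced genes tested, 8 rose and 9 fell in iXEN cells, and 3 rose and 3 fell in XEN cells. Plod2, the collagen lysyl hydroxylase, rose to 1935 ± 567 CPM (SD, n = 4) in iXEN cells from 149 ± 13.1 CPM (SD, n = 3) in MEF (3.73, SE 0.31, adjusted p = 3.20e-05), and Epor, the erythropoietin receptor, rose in both (3.25 and 3.48). Among the falls in iXEN cells were Lox, a collagen crosslinking enzyme and one of the fibroblast markers, which fell by 11.58 (2171 CPM in MEF against 0.684 CPM), and Igfbp3, a growth factor binding protein (603 against 0.416 CPM). In XEN cells Igfbp3 fell by 5.03 and Lox was not called (-5.69, SE 2.09, adjusted p = 0.090).

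Of 37 flux regulators and branch-point genes tested in iXEN cells, 5 rose and 10 fell (all genes 20.8% and 25.9%), and of 36 in XEN cells 3 rose and 5 fell (all genes 11.4% and 13.7%). Rpia, an enzyme of the pentose phosphate pathway, rose by 2.30 in iXEN and 1.89 in XEN cells, and Pdhb, a subunit of pyruvate dehydrogenase, by 1.08 and 1.45. Kinases and a phosphatase of that complex were lower in both: the differences in iXEN and XEN cells were -5.12 and -5.04 for Pdk4, -3.27 and -2.78 for Pdp1, and -2.08 and -1.33 for Pdk3. Of the other isozymes and transporters, 14 were tested in iXEN cells, with 3 rising and 5 falling, and 13 in XEN cells, with 2 rising and 3 falling. The hexokinase Hk3 and the transporter Slc16a7 averaged 6.43 and 3.21 CPM in MEF and had at most 3 counts in total over the libraries of each ESC-medium group.

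iXEN and XEN cells were next compared with each other. In ESC medium none of 35 members was called by edgeR, nor was any of 12944 genes (0%), and 5 members, Tpi1, Pfkp, Pgam1, Gapdh and Higd1a, had an unadjusted p under 0.05, as did 13.7% of all genes. All 5 were lower in iXEN cells. Tpi1, triose phosphate isomerase, stood at 249, 238, 314 and 306 CPM in iXEN 1, 2, 6 and 9 and at 500, 532 and 1042 CPM in XEN 1, 2 and 7, without overlap, a difference of -1.36 (95% interval -2.14 to -0.57, adjusted p = 0.32). DESeq2 called Tpi1 lower and no other member (adjusted p = 0.024), where it called 3.17% of all genes lower. Of the 15 glycolytic enzymes 13 were below 0, with a median of -0.71, beside -0.003 over all genes tested. XEN 7 was the highest XEN library for 10 of the 15. Epas1 did not overlap either, every iXEN library being above every XEN library, with a difference of 1.21 (interval -0.36 to 2.78). The intervals were wide for several members that had risen against MEF, from -3.63 to 0.68 for Slc2a3, from -1.35 to 0.85 for Slc16a1 and from -1.32 to 1.39 for P4ha1. They were narrower for Hk2 (0.36, interval -0.20 to 0.91) and P4ha2 (-0.05, interval -0.77 to 0.67).

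In XEN medium none of 33 members was called between iXEN and XEN cells by edgeR (0% of 13263 genes), and 2 members had an unadjusted p under 0.05, as did 4.10% of all genes. Of the 15 glycolytic enzymes 13 were above 0 here, the reverse of ESC medium. Their median was 0.36 over the 15, beside 0.04 over all genes tested. XEN 1 was the lowest XEN library for 12 of the 15. Its median log2 level over the MEF mean was -1.19, beside -0.01 in XEN 2 and -0.19 in XEN 7. The iXEN libraries ran from -0.21 to 0.21. Slc16a3 stood at 18.5, 41.5, 9.05 and 23.3 CPM in iXEN 1, 2, 6 and 9 and at 1.62, 3.08 and 1.30 CPM in XEN 1, 2 and 7. All iXEN libraries were above all XEN libraries, the difference was 3.56 (SE 0.66, 95% interval 2.03 to 5.09, adjusted p = 0.93), and it was 2.77 without iXEN 2 and 9, the libraries with fibroblast marker sums of 2193 and 958 CPM. DESeq2 called Slc16a3 higher (adjusted p = 9.65e-06) and also Adm (adjusted p = 0.014), beside 0.702% of all genes. Adm, too scarce for the edgeR test here, stood at 0.114, 4.72, 0.0902 and 11.2 CPM in iXEN 1, 2, 6 and 9 and at 0.147, 0.0550 and 0.0196 CPM in XEN 1, 2 and 7. Its only levels above 1 CPM were in iXEN 2 and 9, and the part of fibroblast RNA in them was not tested. Pfkl, the other member with a low unadjusted p, ranged from 112 to 399 CPM in iXEN and from 85.1 to 140.2 CPM in XEN cells (1.25, interval 0.22 to 2.28, adjusted p = 0.98).

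The effect of XEN medium was compared with ESC medium in each cell type. In XEN cells none of 34 members was called by edgeR (0% of 13241 genes), and 4 had an unadjusted p under 0.05, against 5.63% of all genes. Slc16a3 went from 12.3, 26.7 and 4.02 CPM in ESC medium to 1.62, 3.08 and 1.30 CPM in XEN medium in XEN 1, 2 and 7, lower in all 3 lines (-2.87, interval -4.81 to -0.93, adjusted p = 0.80). DESeq2 called it lower (adjusted p = 0.046), as it did 0.418% of all genes. Ndrg1 went from 262, 144 and 14.9 CPM to 23.9, 15.2 and 6.89 CPM, also lower in each line (-3.23, interval -5.62 to -0.84, adjusted p = 0.80). Hif1a went from 78.1, 167 and 73.0 CPM to 187, 221 and 221 CPM, higher in each line (0.96, interval 0.05 to 1.87), and Pfkl from 178, 254 and 222 CPM to 85.1, 140.2 and 94.6 CPM, lower in each (-1.06, interval -1.81 to -0.32). None of these differences passed the adjusted threshold in edgeR's test, which did not pair the same-numbered libraries. Each of these directions by line also holds with XEN 1 and 2 exchanged.

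In iXEN cells XEN medium gave no member called by edgeR out of 34 (0% of 12920 genes), while 10 members had an unadjusted p under 0.05, against 23.4% of all genes. The nearest were Pgam1, Tpi1 and Higd1a. Pgam1, phosphoglycerate mutase, went from 216, 226, 218 and 172 CPM in iXEN 1, 2, 6 and 9 in ESC medium to 707, 441, 680 and 415 CPM in XEN medium (1.45, interval 0.86 to 2.04, adjusted p = 0.058). Tpi1 went from 249, 238, 314 and 306 CPM to 701, 464, 657 and 672 CPM (1.20, interval 0.65 to 1.74, adjusted p = 0.059), and Higd1a from 44.0, 41.9, 51.2 and 42.5 CPM to 93.5, 77.8, 211 and 145 CPM (1.58, interval 0.83 to 2.33, adjusted p = 0.063). For these 3 genes all 4 libraries in XEN medium were above all 4 in ESC medium. Epas1 stood at 607, 707, 1352 and 747 CPM in XEN medium, all below its 1619 to 2402 CPM in ESC medium (-1.29, interval -2.02 to -0.56, adjusted p = 0.084). Ndrg1 stood at 75.2, 79.7, 12.9 and 18.4 CPM in XEN medium and at 76.0, 278, 198 and 330 CPM in ESC medium, where iXEN 1 alone reached down to the XEN-medium levels (-2.22, interval -3.70 to -0.74, adjusted p = 0.11). DESeq2 called Higd1a, Pgam1 and Tpi1 higher and Epas1 and Ndrg1 lower, beside 6.93% of all genes higher and 5.02% lower. Leaving out iXEN 2 in XEN medium also brought Higd1a, Pgam1 and Tpi1 past edgeR's threshold, with Egln3 lower, and leaving out iXEN 6 in ESC medium brought Ddit4, Pgam1 and Tpi1 past it.

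**Figure D5:**
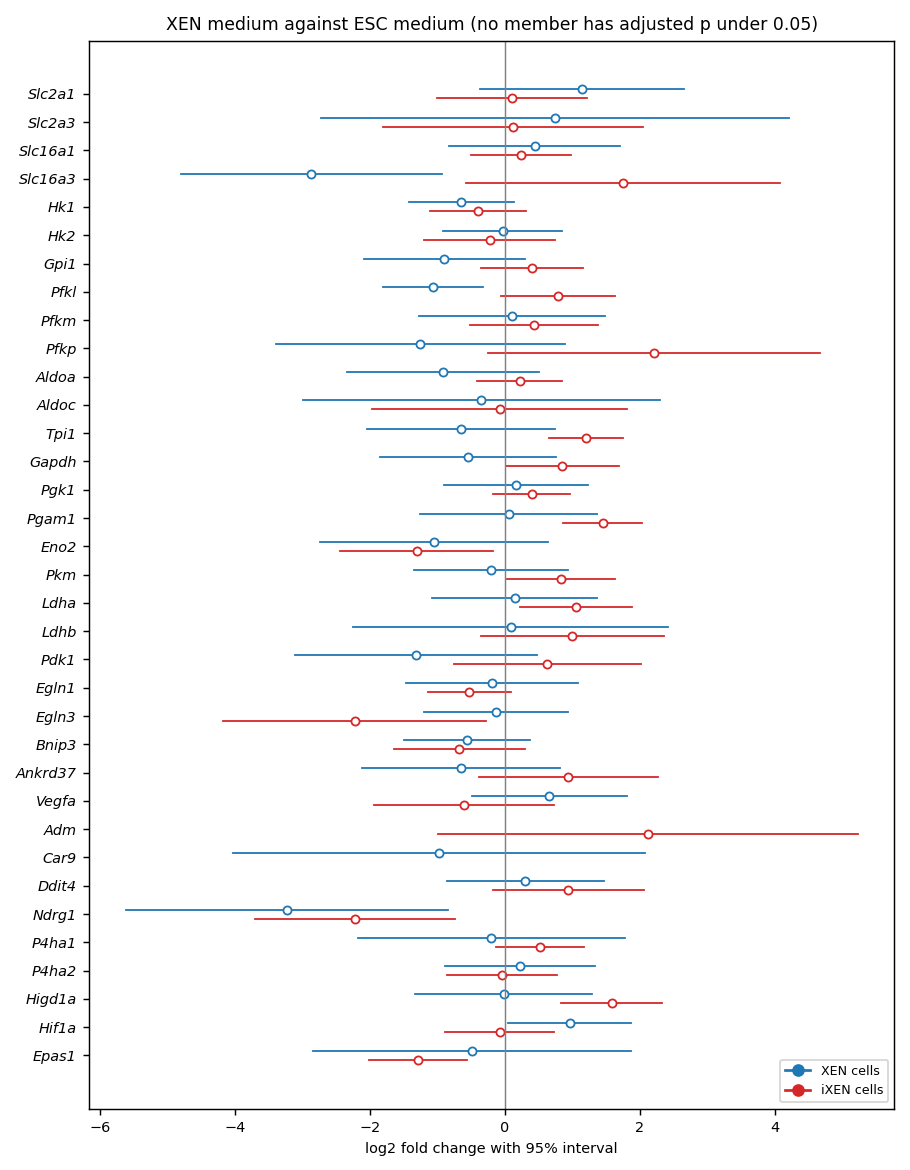
Log2 fold change of members (y axis) between XEN medium and ESC medium, with 95% intervals; blue points are XEN cells (n = 3 against 3) and red points iXEN cells (n = 4 against 4), all open because no adjusted p was under 0.05. Tpi1, Pgam1 and Higd1a lie to the right of 0 in iXEN cells with intervals that leave out 0, Ndrg1 lies to the left in both, and no point is drawn for Adm in XEN cells or Car9 in iXEN cells, which were not tested there.

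Whether the medium acted differently on iXEN and XEN cells was tested by the interaction, in which edgeR called none of 35 members (0% of 14357 genes). An unadjusted p under 0.05 was found for 6 members, Slc16a3, Pfkl, Tpi1, Adm, Higd1a and Pgam1, and for 14.8% of all genes. Slc16a3 was lower in XEN medium in all 3 XEN lines, while in iXEN cells it ranged from 0.620 to 22.1 CPM in ESC medium and from 9.05 to 41.5 CPM in XEN medium (interaction 4.62, interval 1.33 to 7.92, adjusted p = 0.24). Pfkl was lower in XEN medium in all XEN lines, while in iXEN cells it ranged from 121 to 188 CPM in ESC medium and from 112 to 399 CPM in XEN medium (1.83, interval 0.72 to 2.95, adjusted p = 0.22). DESeq2 called Adm, Pfkl and Slc16a3 (adjusted p = 0.031, 0.039 and 0.035), beside 2.90% of all genes called higher. Without iXEN 2 and 9 in XEN medium the interaction for Adm went from 6.84 to 1.53, and that for Slc16a3 from 4.62 to 3.84.

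Against MEF, the XEN-medium libraries repeated part of the ESC-medium pattern, with the same MEF libraries. Slc2a3, Slc16a1, Hk2, Epas1, P4ha1, P4ha2, Ankrd37 and Higd1a were called higher in both cell types, with Egln3 in XEN cells as well, and Adm lower in both. Slc16a3 was also called lower in XEN cells and Car9 in iXEN cells. The share of all genes called in these fits was not counted, so nothing particular to the members is read from them. Ndrg1 changed sign in these fits: it was -1.95 (adjusted p = 0.013) in XEN cells, and -0.33 (adjusted p = 0.71) in iXEN cells. Hif1a and Pfkp were called lower in XEN but not in iXEN cells, where Pfkp stood at 11.1 and 27.8 CPM in iXEN 2 and 9 and at 0.608 and 2.05 CPM in iXEN 1 and 6. The higher pair are again the libraries with more fibroblast markers, whose part was not tested.

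Lines of one group differed more in these genes than MEF libraries did. Over 35 members the highest library of a group was a median 1.57 times the lowest in MEF, in ESC medium 2.30 times for XEN and 2.12 times for iXEN cells, and in XEN medium 3.34 and 3.37 times. The biological coefficient of variation over all genes was 0.195 in MEF and 0.418 to 0.597 in the stem cell groups. XEN 7 was set apart in both media, with Slc2a3 at 2996 and 5187 CPM, Epas1 at 142 and 121 CPM, P4ha1 at 196 and 224 CPM, Ldhb at 9.78 and 7.64 CPM and Eno2 at 11.4 and 7.38 CPM in ESC and XEN medium. In Slc2a3 it was the highest of its group in both media and in the other 4 genes the lowest. Among iXEN lines in XEN medium Slc2a3 ran from 31.9 CPM in iXEN 6 to 1420.5 CPM in iXEN 1, and Hk2 from 47.6 CPM in iXEN 9 to 251 CPM in iXEN 1. iXEN 6 was at once the lowest of these lines in Slc2a3 and the highest in Ldhb (151 CPM), Gapdh (1451 CPM) and Higd1a (211 CPM).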

How the data were processed

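Polyadenylated RNA from 17 libraries was extracted with Trizol and prepared with an Illumina TruSeq mRNA kit, per the labels' protocols. The authors deposited whole-number read counts per gene for each library. FastQC 0.11.3, Trimmomatic 0.32, TopHat2 2.0.12 and HTSeq 0.6.1 and the build mm9 are named in the submitters' processing notes. No label or file header used here gives the gene annotation, the parameters or whether counting used strand, so reads of overlapping and antisense genes may not be separable. The counter's summary lines, 20.8% to 33.1% of each file's total, name no gene and were left out. Of those, reads without a unique position made up 13.7% to 24.6%.

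Groups come from the sample titles and labels. Where nothing states that libraries of a group came from separate animals or derivations, p-values measure only the spread between these libraries. Counts were tested with edgeR 4.0.16 (R 4.3.3), using its quasi-likelihood test, two-sided, with trimmed-mean (TMM) scaling and filterByExpr (minimum count 10, minimum total 15). Each fit held only the libraries of the groups compared, and p-values were adjusted by Benjamini-Hochberg over all genes tested, with a threshold of 0.05. Every adjusted p in the text comes from this test unless DESeq2 is named. Standard errors were derived from the fold change and the F statistic of each gene. Scaled CPM used TMM factors over all 17 libraries, and ratios added 0.5 counts to each gene. Levels per kilobase used the union of coding-gene exons in GENCODE M21 basic (GRCm38), matched by symbol.

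The alternatives were DESeq2 1.42.0, other size factors, no filter, all 5 groups in one fit, the other medium, both media with medium as a covariate, each library left out, a replicate block, and both XEN 7 libraries left out. Leaving out iXEN 2 and 9 in XEN medium together was added after seeing the data. Same-numbered XEN libraries deviated together between media (r of deviations over genes 0.240, 0.377 and 0.635 for XEN 1, 2 and 7), all above the 0.1 set for pairing. The number was therefore taken to pair them, although XEN 2 in ESC medium correlated better with XEN 1 in XEN medium (0.428). Deviations were taken from means of 3 libraries, and XEN 7 deviated against XEN 1 and 2 across media (r from -0.567 to -0.240). These values therefore do not settle how XEN 1 and 2 pair. The reported tests between media and of the interaction did not use this pairing, which entered only as the replicate block among the alternatives. The 36 members and all gene lists were chosen with earlier results of these data known. Every member is named. Values per library are given for most of the called members with the largest changes, for other genes of the ratios and for genes set apart in 1 line. Of the ratio genes, Slc2a1, Hk1, Pfkm, Aldoc, Ldhb and Eno2 are given mainly as group ranges, and Aldoa by its differences. From each wider list the 3 largest called changes per direction were eligible.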

Additional observations from a re-analysis of the deposited data

Results flagged for a closer look

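Libraries were compared within each group of 4 by the gap of the highest or lowest library to its nearest neighbour, relative to the range of the group. Of 72 such comparisons over the 36 members, 5 passed the 95% limit, where chance gives about 1 in 20. In ESC medium iXEN 9 was below the other iXEN libraries in Pgam1 (172 CPM against 216 to 226 CPM) and in P4ha1 (623 CPM against 869 to 927 CPM). In XEN medium iXEN 2 was below the others in Tpi1 (464 CPM against 657 to 701 CPM). The other 2 were single libraries with a few counts of Eno1 where the rest had 0: 0.0327 CPM in iXEN 9 in ESC medium and 0.0738 CPM in iXEN 2 in XEN medium, the latter equal to 3 counts. With the rest at 0 the gap equals the whole range, so these 2 passed whatever the count and should not be set against 1 in 20.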

How the results depend on the processing

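Against MEF, the members called lower in iXEN cells went from 8 to 3 with all 5 groups in one fit and to 2 with the XEN-medium libraries in place, and ranged from 4 to 10 when 1 library was left out (4 without MEF 2 or iXEN 9, 5 without MEF 1). The members called higher, 11, were 9 and 8 in those 2 fits, and 10 to 12 when 1 library was left out. In XEN cells the members lower went from 4 to 2 with all 5 groups in one fit, and leaving out 1 library gave 2 to 11 higher and 1 to 4 lower, with 11 higher without XEN 7 and 1 lower without any 1 MEF library. The median log2 difference over the members in XEN cells went from 0.25 to -0.03, and Ndrg1 changed sign with the XEN-medium libraries in place, to -0.33 in iXEN and -1.95 in XEN cells. DESeq2 called members where edgeR called 0: 1 lower between iXEN and XEN cells in ESC medium, 2 higher in XEN medium, 1 lower for the medium in XEN cells, 3 higher and 2 lower for the medium in iXEN cells, and 3 higher for the interaction. For the medium in iXEN cells, leaving out 1 library gave 0 to 3 higher and 0 to 1 lower. The cause of these shifts was not tested, apart from fewer libraries where 1 was left out. For the alternative fits against MEF and all fits with 1 library left out, the share of all genes called was not counted. Nothing particular to the members is therefore read from those counts. With the replicate block 0 members were called for the medium in XEN cells, in iXEN cells and for the interaction, so the pairing changed no call. Same-numbered iXEN libraries gave r of 0.144, 0.181, 0.123 and -0.034 for iXEN 1, 2, 6 and 9, so those numbers were not taken as pairs, and only iXEN 1 and 2 correlated best with their own number. Of the results for single members and medians under alternatives, 3240 were labelled the same. A member called in neither fit counted as the same even if its sign changed, and so did a median that moved less than its spread. Of the rest, 73 lost and 40 gained a call, and 2 changed sign with a call in either fit. The other 8, all medians over the members, moved beyond their spread. Of the counts of members called, 168 were unchanged or within a factor of 1.5, and 22 moved further. Depth limits Eno1, and Adm and Car9 in the stem cells, where 3 counts equal 0.0589 to 0.138 CPM.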
